A study of Mus musculus with 8 samples.

Results

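Trans-synaptic organizers are adhesion proteins that span or bridge the synaptic cleft, and 44 genes encoding them were examined in mouse cerebral cortex. The members were the rows of the deposited count table whose gene symbol was on a list of neurexins, neuroligins, their partners and related adhesion families. All 44 had counts and passed the low-count filter of the test, out of 55416 genes in the table and 18627 genes tested. The rule used symbols only and no measured value, but the list itself was chosen with earlier results of these data known.

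Polyadenylated RNA of the cerebral cortex was sequenced from 4 libraries of mice heterozygous for the AGO2 L192P substitution (AGO2_L192P/+, hereafter L192P) and from 4 wild-type (WT) libraries. AGO2 is an Argonaute protein, which binds microRNAs and represses the mRNAs that they pair with. The allele was made with CRISPR/Cas9 and a repair template in C57BL/6JUke embryos, the repair template also carried a silent change of the PAM, and founders were bred to wild-type mice. The comparison addresses whether transcript levels in the cortex differ between heterozygous and wild-type animals; age and sex are not given in the labels, and the labels do not say that each library came from a separate animal, so the p-values measure only the spread between these libraries.

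At excitatory and inhibitory synapses, presynaptic neurexins and LAR-type receptor phosphatases bind partners on the postsynaptic membrane, among them neuroligins, LRRTMs, SLITRKs, SALMs, IL1RAPL1 and calsyntenins. Secreted cerebellins and C1q-like proteins link presynaptic receptors to postsynaptic ones, latrophilins bind FLRTs and teneurins, neuronal pentraxins gather AMPA-type glutamate receptors, and SynCAMs bind one another from both sides of the cleft. Together these proteins help to set where synapses form and which type they become.

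The libraries held between 20396357 and 43575900 counts, and WT replicate 2 was the deepest. The targeted gene Ago2 had 2222 to 2398 normalized counts (counts divided by the DESeq2 size factor of the library) in L192P and 2083 to 2380.3 in WT, with a log2 fold change of 0.03 (SE 0.0639, DESeq2 adjusted p = 0.968); gene counts do not read the substitution itself. Xist, expressed from the inactive X chromosome of female cells, stood at 0.934 and 1.82 normalized counts in replicate 1 of L192P and WT and between 5185 and 7257 in the other 6 libraries. Replicate 1 of both genotypes was thus almost without this mark of female cells and stood apart from the rest, which carried it. Libraries with the same replicate number deviated from their genotype means together, with correlations over genes from 0.233 to 0.628, against -0.375 to 0.144 between different numbers. Values from a fit with the replicate number as a block are therefore given beside the results that they change. Slc17a7, the vesicular glutamate transporter of cortical excitatory neurons, had 28887 to 34033 normalized counts. Of a 4-gene cerebellum list, Pcp2, Gabra6 and Fat2 had 0 to 10.7, whereas Calb1 had 4490 to 5475.

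None of the 44 members passed an adjusted p under 0.05 in the DESeq2 comparison of genotypes, in which 253 of 18627 genes tested, or 1.36%, were called. The log2 fold changes of the members (L192P against WT) ran from -0.30 for Cbln4 to 0.45 for Cbln1, 18 were above 0 and 26 below 0, and their median was -0.03, beside 0.0019 over all genes tested. Scaling the libraries by their total counts changed that split to 22 above and 22 below 0. That scaling moved genes in general upward as well. The median of the members was then -0.0010, beside 0.0258 over genes in that fit, so the members again lay below the genes as a whole. At an unadjusted p under 0.05 stood 9 members, 4 higher and 5 lower in L192P, beside 9.44% of all genes tested and 11.6% of the 10816 genes with at least the mean count of the lowest member. The edgeR and limma-voom fits called none of the members either, with 9 at an unadjusted p under 0.05 in each.

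With the replicate number as a block, 3 members were called by DESeq2, beside 4.25% of the 12536 genes tested in that fit. Cbln1 and Cadm1 rose and Adgrl1 fell. The edgeR fit with the same block also called 3, in which Cbln1 rose and Adgrl1 and Cbln4 fell, beside 3.04% of all genes. Leaving out WT replicate 1 gave 4 called members, Flrt3, Cbln1 and Cadm1 higher and Adgrl1 lower, beside 3.24% of genes. On replicates 2 to 4 of both genotypes alone, Nrxn3, Cbln1 and Cadm1 were higher and Adgrl1 and Nptx1 lower, 5 members beside 3.46% of genes. That fit used only the 6 libraries with high Xist. No member was called when any of the other 7 libraries was left out.

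The precision allowed limits to be placed on most members. The 95% interval of the log2 fold change lay within 0.25 of 0 for 24 members, within 0.3 for 32 and within 0.5 for 40. The members outside 0.5 were Cbln1, Cbln4, C1ql1 and C1ql2, and C1ql2 alone reached beyond 1. Over the 8 libraries, the highest library was under 1.5 times the lowest for 39 members, and the median coefficient of variation was 7.69%. The mean level ran from 181 normalized counts for C1ql2 to 34003.5 for Clstn1.

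**Figure D1:**
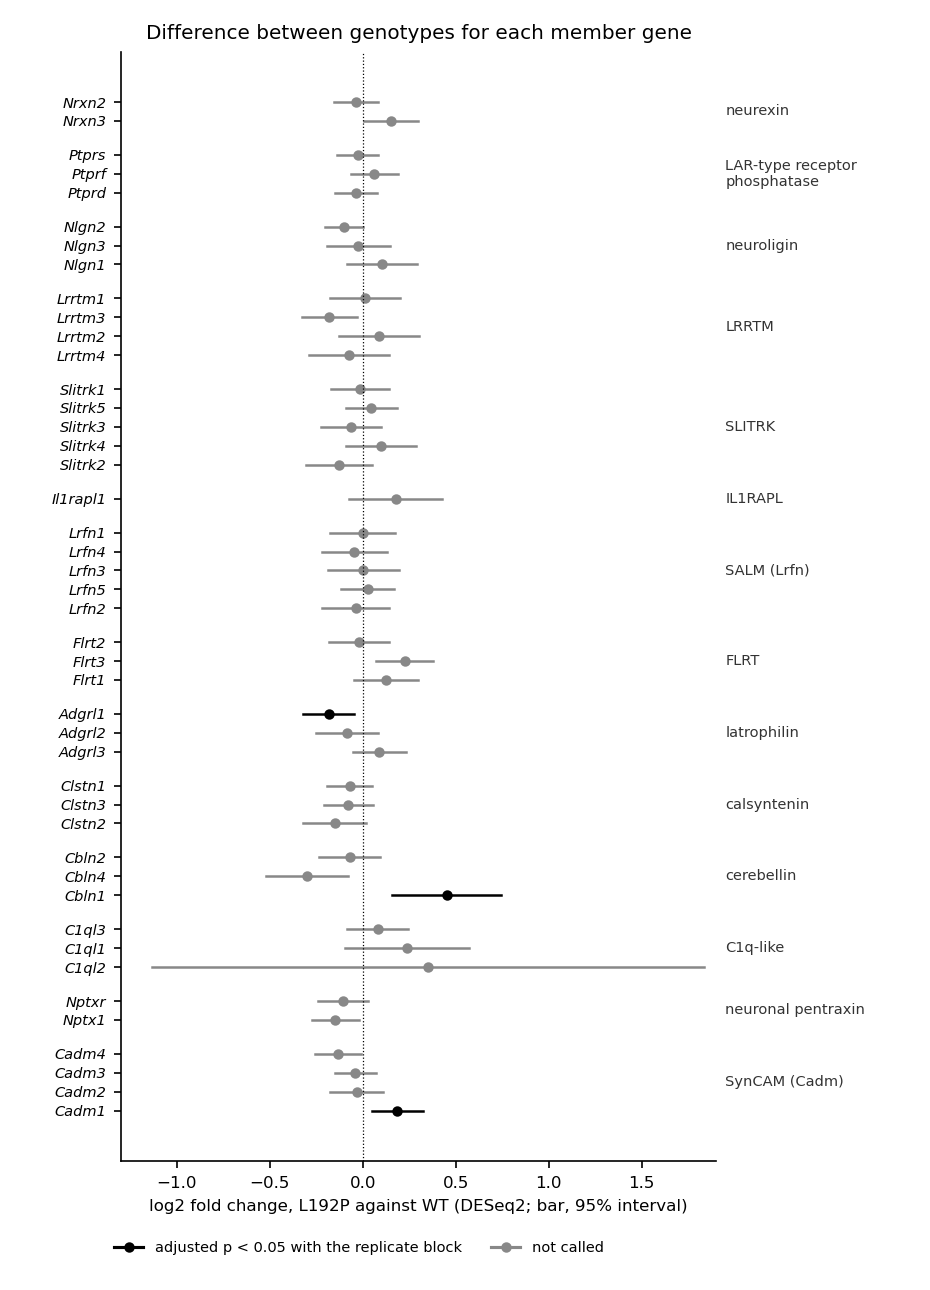
Log2 fold change of each of the 44 member genes in L192P against WT (x axis; DESeq2 estimate without the block as a point, its 95% interval as a bar), grouped by family on the y axis; black marks the 3 genes called with the replicate block. Cbln1 at 0.45 and Cbln4 at -0.30 lie farthest to either side, and the interval of C1ql2 runs from -1.13 to 1.83.

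Cbln1 encodes a secreted cerebellin that joins presynaptic neurexins to receptors on the postsynaptic side. In L192P replicates 1 to 4 it had 391, 292, 342 and 331 normalized counts, and in WT replicates 1 to 4 it had 325, 241, 215 and 209.6. The L192P library was higher than the WT library of the same number in each pair, and the groups overlapped through WT replicate 1, which lay above L192P replicate 2. The means were 339 ± 40.4 (SD, n = 4) in L192P and 248 ± 53.4 (SD, n = 4) in WT, 36.7% higher in L192P by the fitted fold change. On the log2 scale the change was 0.45 (SE 0.149), with a DESeq2 adjusted p of 0.121, and 0.46 with an adjusted p of 0.0258 in the blocked fit. Without WT replicate 1 it was 0.61 with a DESeq2 adjusted p of 0.00112.

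Marker lists of some other brain regions were also higher in L192P than in WT. The summed level of a 5-gene thalamus list (Tcf7l2, Prkcd, Rgs16, Calb2, Lef1) was 2003 to 4552 normalized counts in L192P and 1330 to 1938 in WT, with all 5 genes above 0 in log2 fold change and Calb2 alone called. In replicates 1 to 4 that sum was 3495, 2456, 4552 and 2003 in L192P and 1763, 1737, 1938 and 1330 in WT. Calb2, at 1004 to 1446 in L192P and 327 to 808 in WT, was the only gene of the list whose groups did not overlap. Tcf7l2, Prkcd, Rgs16 and Lef1 each overlapped between genotypes, so the gap between the sums leans on Calb2. The sum was highest in replicate 3 of each genotype and Cbln1 in replicate 1 of each. In L192P, replicates 1 and 3 were above replicates 2 and 4 for both, and in WT this held for the sum but not for Cbln1. A 6-gene hypothalamus list (Pmch, Hcrt, Avp, Oxt, Agrp, Trh) summed to 189 to 1166 in L192P and 84.3 to 177 in WT, with 6 of 6 above 0 and 2 called, Avp and Oxt. Pmch and Hcrt had 262 and 178 normalized counts in L192P replicate 3 and 0 to 16.8 in the other L192P libraries. DESeq2 gave no p-value for either, so their fold changes rest on 1 library. Agrp was low throughout, at 5.65 to 14.9. The part of these regions in the Cbln1 result was not tested. In bulk tissue, more cells of a type and more RNA per cell cannot be told apart, for this gene and for the others.

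Cbln4, a cerebellin of the same family, had 393, 531, 445 and 496 normalized counts in L192P and 551, 644, 509 and 582 in WT. Each L192P library lay below its same-numbered WT library, and L192P replicate 2 lay above WT replicate 3. The log2 fold change was -0.30 (SE 0.113), with a DESeq2 adjusted p of 0.229, 0.0702 with the block, and 0.0398 in the edgeR fit with the block. The third member, Cbln2, had means of 1086 ± 109 (SD, n = 4) in L192P and 1139 ± 58.4 (SD, n = 4) in WT, and its interval ran from -0.24 to 0.10. Per kilobase of exon, Cbln2 and Cbln4 stood at 176 and 174 normalized counts and did not differ beyond their spread, while Cbln1 was lowest at 95.8.

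The C1q-like proteins are secreted and bind synaptic receptors that include neurexins and adhesion G protein-coupled receptors of the BAI family. C1ql3 had the highest level of the 3 per kilobase, 231 normalized counts, and C1ql1 and C1ql2 overlapped at 107 and 90.05. The log2 fold changes of C1ql3 and C1ql1 were 0.08 (interval -0.08 to 0.24) and 0.24 (interval -0.10 to 0.57).

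C1ql2, a gene of dentate granule cells, was the most variable member, with a coefficient of variation of 79.8%. It had 102, 135, 472 and 103 normalized counts in L192P replicates 1 to 4 and 171, 80.2, 328 and 57.4 in WT replicates 1 to 4. Replicate 3 of each genotype was the highest library of its group. Prox1, which marks dentate granule neurons, had 950.1 and 960.3 normalized counts in the L192P and WT replicate 3 libraries and 480.3 to 599.8 in the other 6. Dsp had 123 and 166 in the replicate 3 libraries and 9.37 to 37.3 in the others, and Lct had 188 and 179 beside 21.5 to 41.0. These are 3 of a 6-gene dentate and hippocampus list, which summed to 2394 and 2339 in the replicate 3 libraries and 1125 to 1544 in the others; Trpc6 of that list did not follow, with 238 and 198 beside 163 to 269.5. The log2 fold change of C1ql2 was 0.35 (SE 0.756) with an interval from -1.13 to 1.83, and 0.14 (SE 0.316) without both replicate 3 libraries, so that a difference of either sign was not detectable here. Whether dentate tissue accounts for these levels was not tested.

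**Figure D2:**
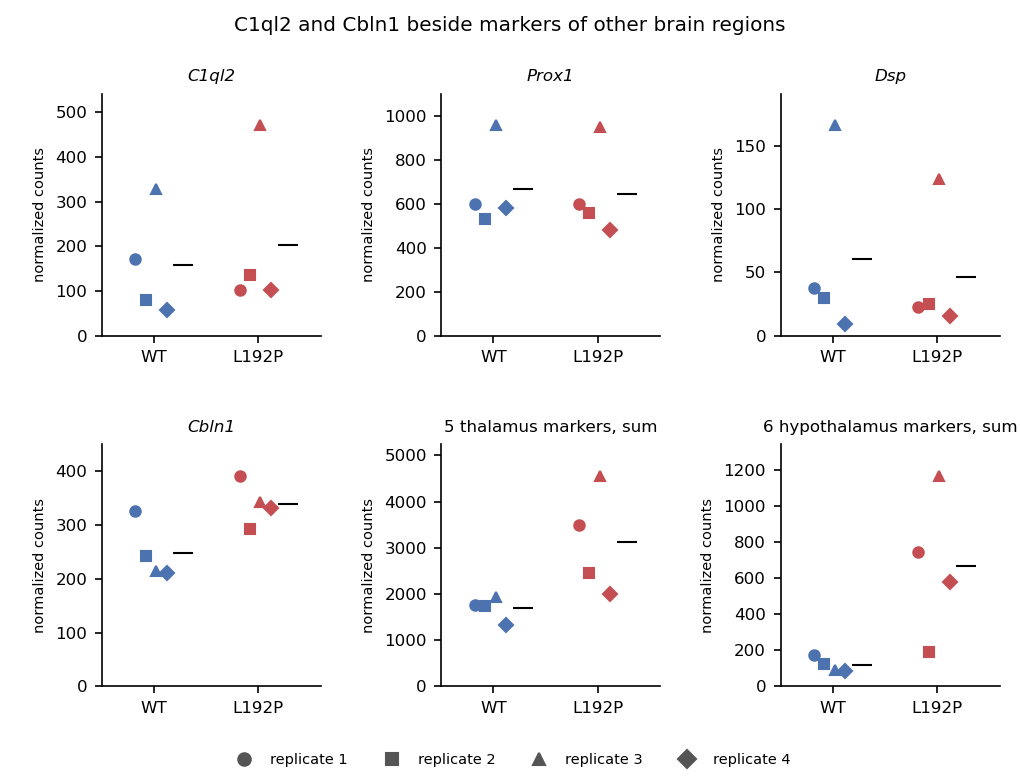
Normalized counts by genotype for C1ql2 with the dentate markers Prox1 and Dsp (upper row) and for Cbln1 with the summed thalamus and hypothalamus marker lists (lower row); each symbol is a library, its shape gives the replicate number, and the dash is the group mean. The replicate 3 libraries are the highest in each upper panel in both genotypes, and the thalamus list runs from 2003 to 4552 in L192P and from 1330 to 1938 in WT. Of the genes in that list, Calb2 alone has groups that do not overlap.

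Among the presynaptic receptors, Nrxn3 had 6003, 6737, 6626 and 7151 normalized counts in L192P and 6409, 5347, 6064 and 6073 in WT. L192P replicate 1 lay below 3 of the 4 WT libraries and the other L192P libraries lay above all of them. Nrxn3 had a log2 fold change of 0.15 (SE 0.0742), with a DESeq2 adjusted p of 0.497 and of 0.176 with the block, and 0.23 with an adjusted p of 0.0201 on replicates 2 to 4. Nrxn2, the more abundant of the 2 neurexins at 685 against 497 normalized counts per kilobase, had an interval from -0.15 to 0.08. Neurexin genes give long and short isoforms from separate promoters, which gene totals do not separate.

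The LAR-type phosphatases, which sit in the presynaptic membrane and bind SLITRKs, IL1RAPL1 and SALMs, showed small differences in both directions. Ptprs was the most abundant at 538 normalized counts per kilobase, and Ptprf and Ptprd overlapped at 199.5 and 184. The log2 fold changes were -0.03 for Ptprs, 0.06 for Ptprf and -0.04 for Ptprd, and none of the 3 intervals reached beyond 0.19 on either side.

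Nlgn2 encodes the neuroligin of inhibitory synapses and was the most abundant neuroligin, with 1038 normalized counts per kilobase, 9.44 times Nlgn1. It had 6043, 6222, 6126 and 6303 normalized counts in L192P and 6560.0, 7074, 6405 and 6438 in WT. Every L192P library lay below every WT library. The log2 fold change was -0.10 (SE 0.053), a change of -6.79%, with a DESeq2 adjusted p of 0.547 and of 0.275 with the block. Nlgn1, which acts at excitatory synapses, had a log2 fold change of 0.10 (interval -0.09 to 0.29), and Nlgn3, found at both kinds, one of -0.02 (interval -0.19 to 0.15).

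Non-overlapping groups were seen for 2 of the 44 members, Nlgn2 and Flrt3, beside 5.97% of all genes tested and 6.78% of the genes with at least the mean count of the lowest member. Exact two-sided permutation tests that took the 8 libraries as unpaired gave unadjusted p of 0.0571 for Cbln1 and for Cbln4 and 0.0857 for Cadm1 and for Adgrl1. The smallest p that this exact test allows is 0.0286, which for Nlgn2 and Flrt3 only restates that the groups did not overlap.

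Flrt3, a leucine-rich repeat protein that binds latrophilins and repulsive UNC5 receptors, had 842, 797, 842 and 833 normalized counts in L192P and 771, 673, 664 and 727 in WT. The L192P libraries lay close together and above all 4 WT libraries. The means were 828 ± 21.5 (SD, n = 4) and 709 ± 50.2 (SD, n = 4), a log2 fold change of 0.23 (SE 0.0784). Its adjusted p was 0.149 in DESeq2 and 0.122 with the block, and 0.0446 without WT replicate 1. Flrt1 had a log2 fold change of 0.12 (interval -0.05 to 0.30) and Flrt2 one of -0.02 (interval -0.18 to 0.14). Flrt2 and Flrt3 overlapped in level at 175 and 158 normalized counts per kilobase, above Flrt1 at 112.

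Adgrl1 encodes latrophilin-1, an adhesion G protein-coupled receptor that binds FLRTs and teneurins. It had 9400.4, 10113, 10603 and 10475 normalized counts in L192P and 10439, 12696, 11543 and 11357 in WT. Each L192P library lay below the WT library of its number, and WT replicate 1, the lowest of its group, overlapped with the L192P range. The means were 10148 ± 539.9 (SD, n = 4) in L192P and 11509 ± 927 (SD, n = 4) in WT. Adgrl1 had a log2 fold change of -0.18 (SE 0.0701), a change of -11.8%, with a DESeq2 adjusted p of 0.243 and of 0.00762 in the blocked fit. Adgrl1 also stood 18.4 times above the lowest latrophilin per kilobase, at 1239.9 normalized counts against 83.6 for Adgrl2 and 67.5 for Adgrl3. The exon lengths used for these were 8733, 19786 and 21333 bases, over all annotated transcripts, so part of the gap comes from length. The log2 fold changes of Adgrl2 and Adgrl3 were -0.08 (interval -0.25 to 0.08) and 0.09 (interval -0.05 to 0.23).

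Beside Adgrl1 and the other members that were lower in L192P, the markers of cortical excitatory neurons were also lower. All 8 genes of that list had log2 fold changes below 0, none called without and 3 called with the block, and their summed level was 40502 to 45863 normalized counts in L192P and 46354 to 48308 in WT. A 6-gene striatum list summed to 20921 to 26211 in L192P and 26728 to 32198 in WT, with 6 of 6 below 0, 1 called without and 4 with the block. The part of either in the results on the members was not tested.

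**Figure D3:**
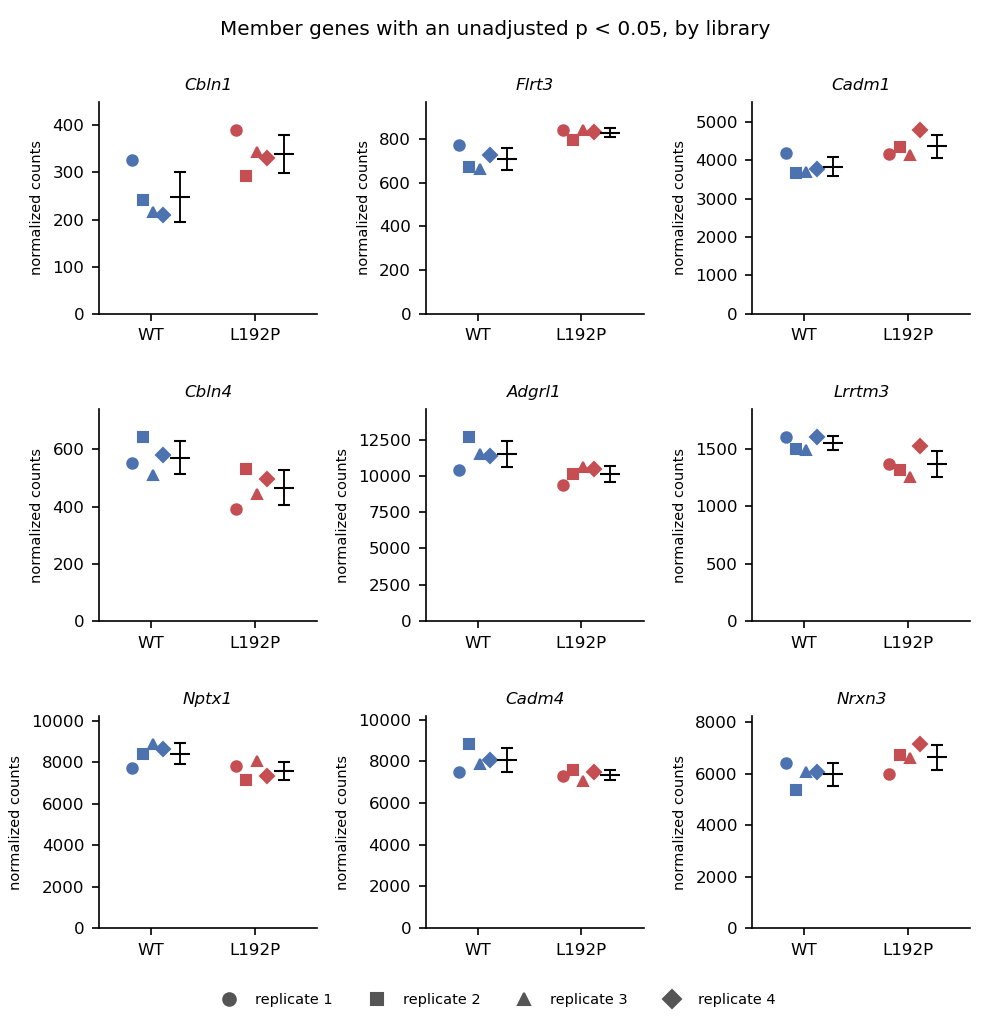
Normalized counts of the 9 members with an unadjusted DESeq2 p under 0.05, by genotype; each symbol is a library, its shape gives the replicate number, and the dash with its bar is the mean ± SD of 4 libraries, with every y axis starting at 0. Flrt3 alone of the 9 has groups that do not overlap, and for Cbln1 the WT replicate 1 library at 325 lies inside the L192P range.

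SynCAMs (Cadm genes) are immunoglobulin adhesion proteins of both synaptic membranes. Cadm1 had 4154, 4341, 4146 and 4795 normalized counts in L192P and 4187, 3672, 3690.1 and 3765 in WT. WT replicate 1 lay above L192P replicates 1 and 3, and the other WT libraries lay below all of L192P. Cadm1 had a log2 fold change of 0.19 (SE 0.0702), 13.8% higher, with a DESeq2 adjusted p of 0.218 and of 0.0477 with the block, and 0.23 with an adjusted p of 0.0255 without WT replicate 1. In the edgeR fit with the block the adjusted p was 0.0871.

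Cadm4, the SynCAM known from myelinating glia as well as neurons, had the highest level of the family, 3313 normalized counts per kilobase, 12.9 times that of Cadm1. Its counts were 7292, 7603, 7036 and 7485 in L192P and 7505, 8832, 7865 and 8051 in WT. The groups overlapped only between L192P replicate 2 and WT replicate 1. The log2 fold change was -0.13 (SE 0.0627), with a DESeq2 adjusted p of 0.45 and of 0.0799 with the block. The 6 oligodendrocyte markers were all below 0 in log2 fold change, none called, and summed to 81844 to 112137 normalized counts in L192P and 83807 to 116569 in WT. Cadm3 and Cadm2, at 1567 and 507 normalized counts per kilobase, had log2 fold changes of -0.04 (interval -0.15 to 0.07) and -0.03 (interval -0.17 to 0.11).

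Both neuronal pentraxin members were lower in L192P without being called. Nptx1, a secreted pentraxin that clusters AMPA receptors, had 7808, 7144, 8089 and 7370.4 normalized counts in L192P and 7730.1, 8412, 8892 and 8666 in WT. In replicate 1 the L192P library was slightly above its WT counterpart, and in the other pairs it was below. Its log2 fold change was -0.15 (SE 0.0646), with a DESeq2 adjusted p of 0.368, 0.0726 with the block, and 0.0348 on replicates 2 to 4. Nptxr, the membrane-bound pentraxin receptor, stood at 4088 normalized counts per kilobase and had a log2 fold change of -0.11 (interval -0.24 to 0.03). Its exons overlap those of Npcd on the same strand, so its counts are less certain.

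Of the postsynaptic LRRTMs, which bind neurexins and act at excitatory synapses, Lrrtm3 was nearest to a call. It had 1371, 1319, 1259 and 1522 normalized counts in L192P and 1605, 1498, 1493 and 1600.3 in WT, and L192P replicate 4 alone lay within the WT range. The log2 fold change was -0.18 (SE 0.0744), with a DESeq2 adjusted p of 0.323 and of 0.108 with the block. Lrrtm1, Lrrtm2 and Lrrtm4 had log2 fold changes of 0.01, 0.09 and -0.08. The exons of Lrrtm3 overlap those of another annotated gene (ENSMUSG00000144257) on the same strand, so its counts are less certain. Lrrtm1 was the most abundant at 399 normalized counts per kilobase, Lrrtm3 and Lrrtm2 overlapped at 308 and 247, and Lrrtm4 was lowest at 82.0.

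The remaining postsynaptic families showed no member at an unadjusted p under 0.05. The 5 SLITRKs, partners of the LAR-type phosphatases, ran from -0.13 (Slitrk2) to 0.10 (Slitrk4) in log2 fold change, with Slitrk1, Slitrk3 and Slitrk5 between them. Slitrk2 had 660.0 to 683 normalized counts in L192P and 626 to 811 in WT, a narrow range inside a wider one. Slitrk1 was the most abundant at 443 normalized counts per kilobase, and Slitrk4 and Slitrk2 overlapped at 96.4 and 82.9. The 5 SALMs (Lrfn1 to Lrfn5), adhesion proteins of which some bind the same phosphatases, all lay between -0.05 (Lrfn4) and 0.03 (Lrfn5). Lrfn1 was highest at 372 normalized counts per kilobase, and Lrfn3, Lrfn5 and Lrfn2 overlapped between 179.9 and 192.1.

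Il1rapl1, whose product binds PTPRD and which is linked to intellectual disability in people, had the lowest level of all members, 40.9 normalized counts per kilobase. It had 466, 338, 419 and 399 normalized counts in L192P and 395, 302, 343 and 402 in WT. The groups overlapped widely. Its log2 fold change was 0.18 (SE 0.128), with an interval from -0.07 to 0.43.

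The 3 calsyntenins, postsynaptic cadherin-type proteins, were all below 0 in log2 fold change. Clstn1 had the highest level per kilobase of the 44 members, 5846 normalized counts, followed in its family by Clstn3 at 1447 and Clstn2 at 265. Clstn2 had 1444, 1371, 1739.9 and 1561 normalized counts in L192P and 1597, 1743, 1829 and 1620.2 in WT, lower in L192P within each pair but overlapping between groups. Its log2 fold change was -0.15 (SE 0.0852), with a DESeq2 adjusted p of 0.608 and of 0.25 with the block. Clstn1 and Clstn3 stood at -0.07 and -0.08, with intervals reaching to -0.19 and -0.21.

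**Figure D4:**
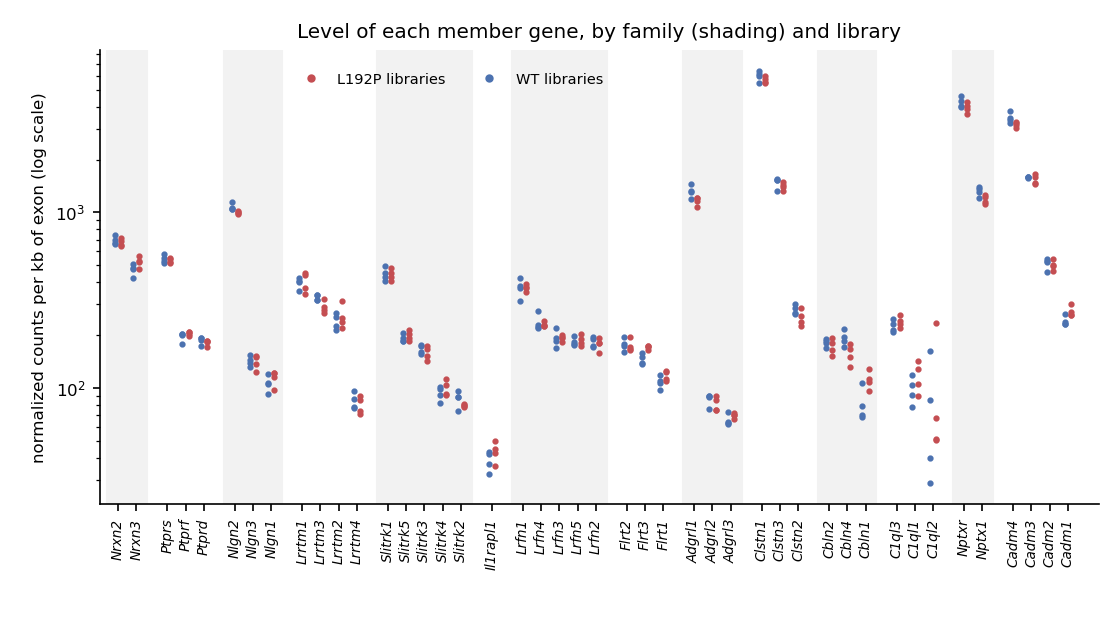
Level of each member in every library, as normalized counts per kilobase of annotated exon on a log scale (y axis), ordered within families that the shading separates (x axis); blue points are WT and red points L192P libraries. Clstn1 is highest at 5846 and Il1rapl1 lowest at 40.9, and the 2 genotypes overlap in every member other than Flrt3 and Nlgn2.

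Other genes of these pathways were taken from a list of 68, of which 67 were tested. DESeq2 called 2 of them, Tenm1 higher and Nptx2 lower, beside 1.36% of all genes. At an unadjusted p under 0.05 in DESeq2 stood 19 of the 67, 12 higher and 7 lower, beside 9.44% of all genes tested. The list was chosen with earlier results of these data known, so these counts are a description with no test. Tenm1, a teneurin that binds latrophilins, had 581, 533, 659.5 and 604 normalized counts in L192P and 502, 389, 405 and 446 in WT, with a log2 fold change of 0.45 (SE 0.107, DESeq2 adjusted p = 0.00507). Nptx2, an activity-regulated pentraxin that forms complexes with Nptx1 and Nptxr, had 1226, 1430.5, 1170.3 and 1407 in L192P and 1645, 1638, 1603 and 1566 in WT, with a log2 fold change of -0.30 (SE 0.0781, DESeq2 adjusted p = 0.0145). The L192P and WT libraries did not overlap for either gene. Both calls were lost in edgeR (adjusted p = 0.0823 for Tenm1 and 0.111 for Nptx2) and in limma-voom, where no pathway gene was called and 18 had an unadjusted p under 0.05 in each. In DESeq2 no pathway gene was called without L192P replicate 3, without WT replicate 2 or without WT replicate 3, and 1, 4 and 7 were called without WT replicate 4, L192P replicate 2 and WT replicate 1. Of all genes, 112, 156 and 496 were called in the last 3 of these fits.

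With the block, DESeq2 called 10 pathway genes, beside the 4.25% of all genes called in that fit. Those higher beside Tenm1 were the netrin-G gene Ntng1 (0.43 on the log2 scale), Lrrc4b, which encodes a postsynaptic ligand of LAR-type phosphatases (0.16), the FLRT receptor gene Unc5d (0.24) and the scaffold gene Lin7c (0.27). Those lower beside Nptx2 were the inhibitory synapse adhesion gene Igsf9b (-0.29) and the scaffold and adaptor genes Apba1 (-0.18), Dlg2 (-0.15) and Dlg4 (-0.14). Ntng1 had 1094, 600, 985 and 686 normalized counts in L192P replicates 1 to 4 and 538 to 663 in WT, so the groups overlapped. Its highest libraries, L192P replicates 1 and 3, were also those with the highest sums of the thalamus list. Whether the Ntng1 and thalamus values are related was not tested.

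MicroRNA sites in the members are shown because AGO2 acts through them. The 3′ UTR of the canonical transcript of all 44 members was searched for 7-base matches to bases 2 to 8 of 10 brain microRNAs. These included miR-5121, named in the text of the study, and miR-92a-3p, taken here for the miR-92-3p named there. The figure caption of the study for the same targets names miR29-3p instead, and miR-29a-3p was also among the 10. At least 1 site was found in 32 members, 72.7%, beside 66.4% of 14382 genes, and the median 3′ UTR was 2456.5 bases long in members and 1393 in all genes. Of the members called in either fit with the block, Adgrl1 had sites for 4 of the 10, Cbln4 had a site for miR-92a-3p, and none of the 10 site sequences was found in the 3′ UTR windows of Cbln1 and Cadm1.

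The microRNAs with sites in Adgrl1 have the following mature sequences, from RefSeq (GRCm38.p6), with the seed, bases 2 to 8, in capitals.
mmu-miR-138-5p: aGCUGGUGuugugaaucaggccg
mmu-miR-5121: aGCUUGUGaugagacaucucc
mmu-miR-9-5p: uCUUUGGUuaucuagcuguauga
mmu-miR-218-5p: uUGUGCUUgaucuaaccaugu

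Their sites in the 3′ UTR exon of Adgrl1, on the plus strand of chromosome 8 (GRCm39), lie at chr8:84665894-84665914, chr8:84665901-84665921, chr8:84667570-84667590 and chr8:84666391-84666411, in the order printed, with the base-paired stretch in capitals. The miR-138-5p and miR-5121 stretches directly follow each other.
Adgrl1, miR-138-5p: agggtttcCACCAGCcacaag
Adgrl1, miR-5121: ccaccagcCACAAGCcccagc
Adgrl1, miR-9-5p: ggggccagACCAAAGataatg
Adgrl1, miR-218-5p: tcctgatgAAGCACAactccc

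A site for miR-138-5p, CACCAGC searched on the transcript strand only, was present in 9 members, 20.5%, beside 15.9% of all genes with a 3′ UTR. These were Nrxn2, Ptprs, Nlgn2, Flrt1, Adgrl1, Clstn1, Clstn2, Nptx1 and Nptxr, and 8 of the 9, all but Flrt1, had a log2 fold change below 0. Their median was -0.10, against -0.00067 in the members without the site. Over all genes with a 3′ UTR the medians were 0.0029 with and 0.0019 without the site. Other microRNAs of the 10 went the opposite way in the members, with medians of 0.08 with and -0.04 without a site for miR-30a-5p (11 members, 7 above 0) and 0.10 with and -0.03 without a site for miR-29a-3p (5 members, 3 above 0). This microRNA was singled out after the values had been seen, and the values are a description with no test.

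The sites in the members with the lowest fold changes of the 9 beside Adgrl1 lie in 3′ UTR exons at chr9:97336153-97336173 (Clstn2), chr11:119431105-119431125 and chr11:119430288-119430308 (Nptx1), chr15:79673202-79673222 (Nptxr) and chr11:69714482-69714502 (Nlgn2), all on the minus strand of GRCm39. Capitals again mark the bases that pair with the seed.
Clstn2: tccacctaCACCAGCaggtct
Nptx1, first site: acccctgcCACCAGCcccagc
Nptx1, second site: cactttgtCACCAGCcctggg
Nptxr: actttgccCACCAGCagggtt
Nlgn2: agggcagaCACCAGCaggaag

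Sites for miR-92a-3p were present in 7 members, 15.9%, beside 8.26% of genes, and the median log2 fold change was -0.03 in these members and -0.02 in the others. Sites for miR-5121 were present in 8 members, 18.2%, beside 11.3% of genes, with medians of -0.04 in these members and -0.03 in the others. The members with a miR-92a-3p site also had longer 3′ UTRs, with a median of 4827 bases against 2081 in the members without.

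Further marker lists were measured to describe the tissue. The interneuron list had 5 of 7 genes above 0, with 1 called and 2 with the block. Gad2 was higher in L192P and called in both fits, whereas Pvalb was lower and called only with the block. On the log2 scale the blocked DESeq2 fit put Gad2 at 0.35 (adjusted p = 0.0441) and Pvalb at -0.22 (adjusted p = 0.00907). The microglia list had 5 of 5 genes above 0, with none called and 1 with the block. The endothelial list had 4 of 4 above 0, with none called in either fit. The astrocyte list had 2 of 6, the oligodendrocyte precursor list 1 of 4, the cerebellum list 1 of 4, the choroid plexus list 3 of 4, the dentate and hippocampus list 4 of 6 and the blood list 4 of 5 genes above 0, with none called. The endothelial list summed to 176 in L192P replicate 1 and 274 in WT replicate 1, and to 412 to 856 normalized counts in the other 6 libraries.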

How the data were processed

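The authors aligned the reads of stranded mRNA libraries to GRCm39 with STAR (version 2.7.9a in the submitters' processing notes), counted reads per gene with featureCounts 1.5.1 and deposited raw counts per gene and library. The strand setting of the counting and the Ensembl release are not given in the sources used here, so members with antisense exons, among them Adgrl1, Cbln1, Cbln4, Cadm1 and Nrxn3, may include reads of the other strand; Nptxr, Cadm3, Nlgn3 and Lrrtm3 share same-strand exons with another gene. A second deposited table of normalized values was not used here.

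DESeq2 1.42.0 (R 4.3.3) was fitted on the deposited counts of all genes with genotype as the only term, following the tool and threshold of the study's methods, and calls needed p under 0.05 after Benjamini-Hochberg adjustment over all genes tested, whatever the fold. Alternatives were edgeR 4.0.16 quasi-likelihood and limma 3.58.1 voom fits, a replicate block, other size factors and filters, and libraries left out. Pairs of libraries of 1 genotype differed by more than sampling noise (chi-square per degree of freedom 5.52 to 22.6). What a replicate number marks is not given in the labels. Because each same-number pair correlated above 0.1 over genes with a mean of at least 50, they were taken as pairs. That limit alone does not separate the pairs by number. L192P replicate 3 with WT replicate 2 (0.144) and L192P replicate 2 with WT replicate 3 (0.111) also passed it, below the lowest same-number value of 0.233. Total counts per library of 20396357 to 43575900 set the precision, and counting error and library spread both enter the DESeq2 standard errors. Lengths, 3′ UTRs and coordinates are from GENCODE M39 on GRCm39, to which 98.8% of gene IDs matched. The length of a gene was that of the exons of all its annotated transcripts merged, not of the transcripts expressed in cortex. Levels and orders per kilobase depend on that choice.

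The members, the other pathway genes, the marker lists and the microRNAs were chosen with earlier results of these data known. All members are accounted for. Those described in full by rule were members called with or without the block, then those of smallest unadjusted p up to 20, and the most abundant of each family per kilobase. C1ql2 fell outside that rule and was described as the most variable member. Pathway genes were named when called in either fit. The fitting code was tested on simulated data with larger changes than any member showed and with no replicate effect. That test therefore does not bear on changes as small as those of the members or on the calls with the block.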

Additional observations from a re-analysis of the deposited data

Results flagged for a closer look

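Each member was screened in each genotype for 1 library far from the other 3, by its gap to the nearest of them as a share of the group's range. The screen took in 88 groups and picked out 6, while about 4.4 (1 in 20) would be picked by chance. Among WT libraries, Ptprf was low in replicate 3 (1701 normalized counts, others 1901 to 1939.8), Adgrl2 was low in replicate 3 (1502, others 1749 to 1781), and Clstn3 was low in replicate 1 (8363, others 9694 to 9801). Lrfn4 was high in WT replicate 2 (993, others 797 to 827) and Adgrl3 was high in WT replicate 4 (1557, others 1327 to 1361). In L192P, C1ql2 was high in replicate 3 (472, others 102 to 135), in the library that was also high for the dentate markers Prox1, Dsp and Lct.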

How the results depend on the processing

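The members called, 0 in the DESeq2 fit, were 3 with the replicate block in DESeq2, 3 in edgeR with the block and 5 on replicates 2 to 4, 0 without both replicate 3 libraries, and 0 to 4 with 1 library left out, the highest without WT replicate 1. The pathway genes called, 2 in that fit, were 0 in edgeR, in limma-voom and without both replicate 3 libraries (an alternative added after seeing the data), 10 and 9 with the block in DESeq2 and edgeR, 4 on replicates 2 to 4, and 0 to 7 with 1 library left out. Of all genes, 253 were called, against 53 in edgeR, 45 in limma-voom, 533 and 513 with the block, 500 on replicates 2 to 4, 76 without both replicate 3 libraries, and 112 to 496 with 1 left out. Scaling by total counts gave 168 genes higher and 64 lower, against 147 and 106. The median of the members ran from -0.038 without L192P replicate 4 to 0.0044 without WT replicate 2.

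Members near 0 changed sign. Lrfn1 was at 0.00057 in edgeR, 0.00028 in limma-voom, 0.0069 and 0.0080 with the replicate block in DESeq2 and edgeR, 0.023 with total-count scaling, 0.00039 with the filter of 10 counts, 0.021 on replicates 2 to 4 and 0.0077 without the replicate 3 libraries. Lrrtm1 was at -0.024 and -0.014 in the last 2 of these, and Flrt2 and Slitrk1 at 0.0039 and 0.011 with total-count scaling. With 1 library left out, Flrt2 ran from -0.077 to 0.027, Lrfn1 ran from -0.077 to 0.068, Lrrtm1 ran from -0.043 to 0.083, Nrxn2 ran from -0.064 to 0.0016, Ptprs ran from -0.053 to 0.0071 and Slitrk1 ran from -0.057 to 0.042. The cause was not tested. Of the other members, Nlgn3, Lrrtm2, Lrrtm4, Lrfn2, Lrfn3, Lrfn4, Lrfn5, C1ql2 and Cadm2 also changed sign under at least 1 alternative, and the rest of the 44 did not. The replicate block changed no other call among the members. C1ql1 and C1ql2 had the fewest counts of the members, and their intervals were among the widest.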
